A study of Mus musculus with 16 samples.

Results

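The Tet1 catalytic mutant (MUT) was set against wild type (WT) on day 3 of differentiation of mouse embryonic stem cells (ESCs) toward anterior neural progenitor cells. Accessible chromatin had been profiled with ATAC-seq, in which a transposase cuts open DNA, in 16 libraries of 8 groups, and 4 of these libraries make up the comparison. The MUT libraries came from the lines CM59 and CM69 and the WT libraries from WT70 and WT72, with 1 library per line. Both MUT lines are single-cell clones that the study made by CRISPR/Cas9 editing of the male WT line WT7, so they share that parent and the clonal step. Mock-transfected clones of WT7 were also made in the study, and it is not known here whether WT70 and WT72 belong to them. All 4 cultures were plated without feeder cells in defined medium with bFGF, with neither a Wnt activator nor a Wnt inhibitor.

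Gained regions were those that both MUT libraries and no WT library had open, and lost regions those that both WT libraries and no MUT library had open. A library counted as open at a region when any of its 50000 deposited intervals with the highest −log10 p overlapped it. By this rule 3087 of the 80595 consensus regions of the series were members, 1532 gained and 1555 lost. The gained regions were 1.9% of all consensus regions and the lost ones 1.93%.

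TET1 is a dioxygenase that oxidises 5-methylcytosine at CpG dinucleotides, the first step of active DNA demethylation. It also has roles in transcription that do not need this activity, among them the recruitment of repressor complexes. A point mutant of the active site keeps the protein and takes away the oxidation, whereas a knockout removes both. CpG-rich promoters that are heavily methylated tend to be closed, and the comparison asks which regions open or close when the oxidation is missing.

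The edit lies in Tet1 on the minus strand of chromosome 10 (chr10:62804570-62908996, GRCm38.p6), in a coding exon, exon 11 of 13 in the annotated transcript with the most exons. The guide RNA has a single exact match in the genome, at chr10:62814460-62814479 on the plus strand, and the donor oligonucleotide covers chr10:62814427-62814521. The guide is shown with its PAM in capitals, and the donor and the reference along the plus strand with the differing bases in capitals.
Guide and PAM: gtgaatgtccttgtgagaatGGG
Donor: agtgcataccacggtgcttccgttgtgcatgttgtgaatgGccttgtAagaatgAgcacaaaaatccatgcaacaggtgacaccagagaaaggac
Reference: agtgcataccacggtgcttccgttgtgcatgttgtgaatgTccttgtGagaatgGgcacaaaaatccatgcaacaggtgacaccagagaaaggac
Counted from 1 at the 5′ end of the donor, the donor carries the substitutions T41G, G48A and G55A relative to the reference, and the first 2 of these 3 lie inside the guide target. The study designed the edit to replace a histidine and an aspartate of the active site with a tyrosine and an alanine.

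Tet1 itself was neither gained nor lost. Of the 11 consensus regions assigned to Tet1, 5 were open in all 4 day 3 libraries and 1 in none. The strongest of them near a start site, chr10:62865248-62865583, had a fold enrichment of 12.5 and 11.7 in the MUT libraries and 12.2 and 10.3 in the WT libraries. Fold enrichment is the authors' ratio of the signal at a peak to the local background. An intronic Tet1 region, chr10:62884128-62884461, had 4.26 and 3.84 in MUT and 4.43 and 4.63 in WT, and no peak in any of the Tet1 knockout (KO) libraries. The edited exon holds no consensus region, so the edit cannot be read from the peak lists.

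The cell state was checked at promoters, taken as regions within 3 kb of the start site of the gene. Promoters of the pluripotency genes Nanog and Pou5f1 and of the formative epiblast genes Otx2, Fgf5 and Pou3f1 were open in all 4 libraries. Lists of other fates were mostly open too. Of 18 primitive streak promoters, 15 and 15 were open in MUT and 15 and 16 in WT. Of 20 mesoderm promoters, 16 and 17 were open in MUT and 16 and 16 in WT. Of 10 trophoblast promoters, 9 and 9 were open in MUT and 9 and 8 in WT. Open promoters alone therefore do not name the cell state. Zfp42, a naive pluripotency marker, had a fold enrichment of 13 and 14.6 in MUT and 15.8 and 12.7 in WT, and Fgf5, a formative marker, 8.65 and 8.59 in MUT and 8.56 and 8.67 in WT. Of the 18 formative genes with a promoter region, 18 and 16 were open in the MUT libraries and 17 and 17 in the WT libraries, and of the 26 neuroectoderm genes 26 and 24 in MUT and 25 and 24 in WT. The fibroblast list, which would mark feeder cells, had 9 and 9 of its 11 promoters open in MUT and 9 and 10 in WT, and the defining collagen gene Col1a2 had a fold enrichment of 7.13 and 8.91 in MUT and 10.3 and 7.95 in WT. Of this list the Pdgfrb promoter was open in the WT pair but not in the MUT pair, with 3.93 and 3.7 in MUT and 5.69 and 5.17 in WT. The part of feeder cells in any result was not tested.

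The first question was how far the MUT libraries stood apart from the WT libraries beyond the difference between lines. The 4 libraries can also be paired across genotype, and these mixed pairs gave 1128 regions for CM59 with WT70, 1166 for CM69 with WT72, 1287 for CM59 with WT72 and 1454 for CM69 with WT70. The counts by genotype, 1532 gained and 1555 lost, were above all 4 mixed counts, by 78 and 101 regions over the largest. The smallest two-sided p of an exact permutation test is 0.33 for groups of this size, so these counts are given without a test. The order held in only 4 of the 9 settings examined, and with all deposited intervals, for example, 454 regions were gained and 239 lost in MUT, while the mixed pairs gave 169 to 514.

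**Figure D1:**
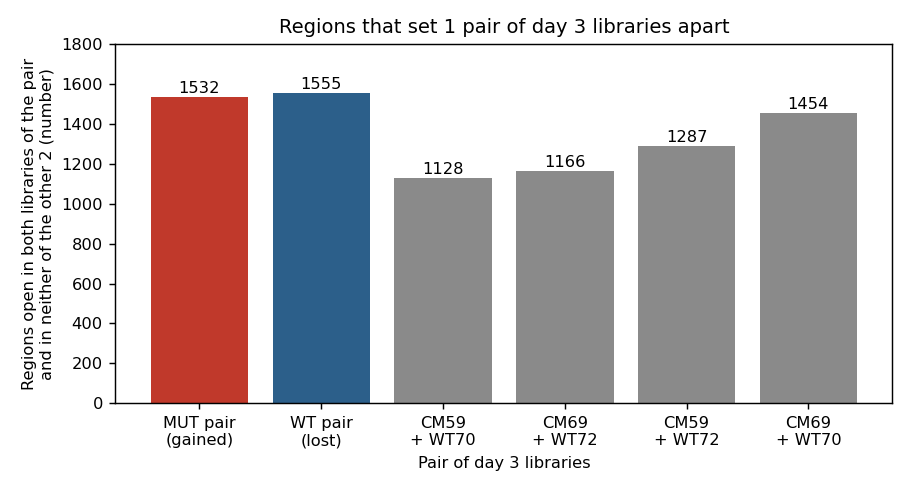
Number of consensus regions (y axis) open in both libraries of a pair of day 3 libraries and in neither of the other 2 (x axis). The MUT pair (red, gained, 1532) and the WT pair (blue, lost, 1555) are above the 4 mixed pairs (grey, 1128 to 1454).

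A fit across the regions with a peak in all 4 libraries made no call. Among the 69738 regions with a deposited peak in all 4 libraries, limma on the log2 fold enrichment called 0 regions at an adjusted p under 0.05 (0%), and the smallest adjusted p was 0.677. At an unadjusted p under 0.05 there were 4116 regions (5.9%), 1902 higher and 2214 lower in MUT, and the 2 mixed pairings gave 2684 and 3818. The median log2 change over these regions, after quantile normalization, was 0.00425, and single changes ran between -1.45 and 1.4. Regions without a peak in 1 of the 4 libraries or more, among them the chromosome Y regions described below, were not in this fit. With regions that had a peak in 2 or more libraries, 75573 were fitted, missing values were set to the lowest of the library, and 0 were called. A fit of all 16 libraries also called 0.

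Most members lay close to the threshold that defines them. The interval at rank 50000 had a −log10 p of 10.94 in CM59, 11.23 in CM69, 12.6 in WT70 and 9.748 in WT72, and the interval at rank 50001 had the same values to 4 digits. Gained regions had a median rank of 41778 and 42526 in the MUT libraries and of 62174 and 61466 in the WT libraries. Between ranks 40001 and 50000 lay 60.8% and 61.9% of them in MUT, and between ranks 50001 and 60000 lay 42.2% and 44% in WT. Lost regions had a median rank of 64735 and 61562 in MUT and of 40916 and 41420 in WT. Few members ranked high, as 13 gained regions lay within the best 20000 in both MUT libraries and 9 lost regions in both WT libraries. The rank is that of the best interval overlapping a region, so it can differ from the signal at the region itself. The gained region at chr4:148131401-148131879 near Mad2l2, for example, ranked 6730 and 4340 in MUT. Its fold enrichment was 3.26 and 3.05 in MUT and 3.43 and 3.38 in WT.

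**Figure D2:**
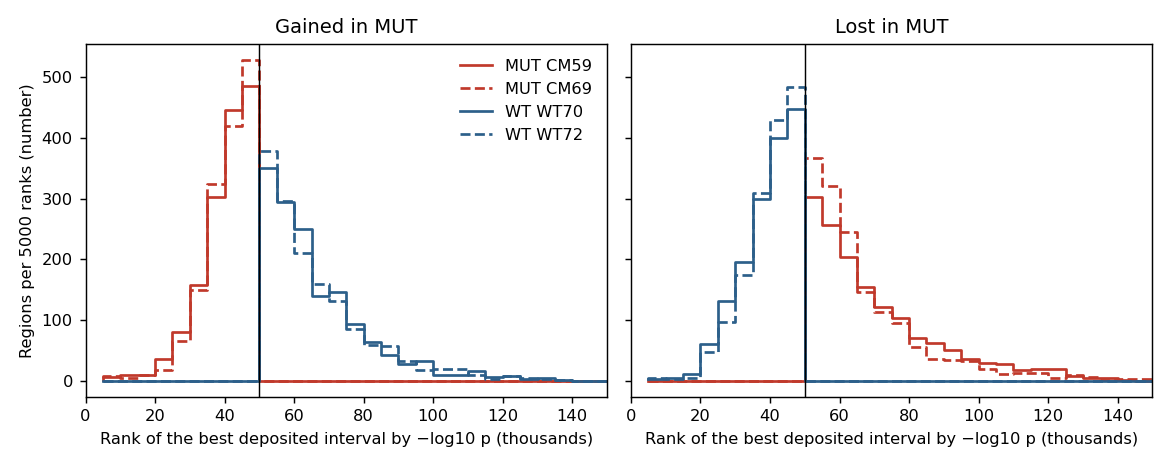
Rank (in k) of the best deposited interval by −log10 p (x axis) at gained (left) and lost (right) regions, as the number of regions per 5000 ranks (y axis), in the MUT (red) and WT (blue) libraries. The vertical line marks rank 50000, and regions gather on both sides of it, with medians of 41778 and 42526 in MUT and 62174 and 61466 in WT at gained regions.

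Regions with no deposited peak at all in the other genotype were rare, although the deposited lists reach far below rank 50000. Of the gained regions, 98.2% held a deposited peak in WT70 and 97.7% in WT72, and of the lost regions, 96.1% held a peak in CM59 and 98.7% in CM69. This left 7 gained regions without a peak in either WT library and 9 lost regions without a peak in either MUT library. The mixed pairs had 0, 1, 1 and 4 such regions. Of the 9 lost ones, 7 lay on chromosome Y, where the mixed pairs had 0 such regions.

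The start of chromosome Y was without peaks in every MUT library. This stretch holds the male-specific genes Ddx3y, an RNA helicase, Uty, a relative of a histone H3K27 demethylase, Eif2s3y, a subunit of a translation initiation factor, Uba1y, a ubiquitin-activating enzyme, and Zfy1, a zinc finger protein. All 10 consensus regions within chrY:140593-1286794 had a deposited peak in 0 of the 4 MUT libraries of day 2 and day 3 and in each of the other 12 libraries. Over the first 10 Mb of chromosome Y the lists held 0 peaks in each MUT library, against 16 to 44 in each of the other 12.

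At 5 of the 10 regions the other 12 libraries were also all open. The Ddx3y promoter at chrY:1286450-1286794 had no peak in CM59 and CM69, and a fold enrichment of 14.5 in WT70 and 11 in WT72. The Uty promoter had no peak in either MUT line, 10.4 in WT70 and 13.7 in WT72, and the Eif2s3y promoter none in MUT, 10.4 in WT70 and 8.33 in WT72. The region 9438 bp from the start site of Uba1y had no peak in MUT, 10.6 in WT70 and 14.1 in WT72. Over the 12 libraries that are not MUT, the Ddx3y promoter ran between 7.85 and 15.5 with a median of 13, and the groups did not overlap at any of the 10 regions. WT7, the parent of the MUT lines, was profiled only with the Wnt activator CHIR, and its library had a peak at all 10, with a fold enrichment of 4.55 to 10.3.

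Sequences of 151 bases around the summit in WT70 are shown for the 3 Y promoters, since they carry the clearest difference between the genotypes, on the plus strand of GRCm38.p6 with CpG dinucleotides in capitals.
Ddx3y, chrY:1286549-1286699: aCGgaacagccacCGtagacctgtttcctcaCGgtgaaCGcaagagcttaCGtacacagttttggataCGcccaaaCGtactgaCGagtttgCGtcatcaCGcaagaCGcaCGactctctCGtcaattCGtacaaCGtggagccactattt
Uty, chrY:1245731-1245881: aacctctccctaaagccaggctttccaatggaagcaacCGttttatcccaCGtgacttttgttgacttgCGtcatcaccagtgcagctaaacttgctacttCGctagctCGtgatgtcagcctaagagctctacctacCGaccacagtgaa
Eif2s3y, chrY:1010218-1010368: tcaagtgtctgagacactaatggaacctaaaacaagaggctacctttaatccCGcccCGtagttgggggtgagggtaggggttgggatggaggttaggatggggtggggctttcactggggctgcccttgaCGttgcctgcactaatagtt
These windows hold 15, 6 and 3 CpG dinucleotides in the order shown.

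Peaks elsewhere on the sex chromosomes were present in MUT. The remaining 14 consensus regions of chromosome Y lie within chrY:90718093-90744774, next to the pseudoautosomal region that X and Y share, and 13 of them had a deposited peak in all 4 MUT libraries. On chromosome X the 50000 intervals included 1098 to 1176 in the MUT libraries and 1076 to 1169 in the other 12. Before normalization, the median log2 difference in fold enrichment, MUT minus WT, was -0.00864 on X and between -0.0239 and -0.00602 on the 19 autosomes. Absent DNA and closed chromatin on Y cannot be told apart from peak lists, and the 10 regions were singled out after their values were seen. Without chromosome Y, 1548 regions were lost.

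**Figure D3:**
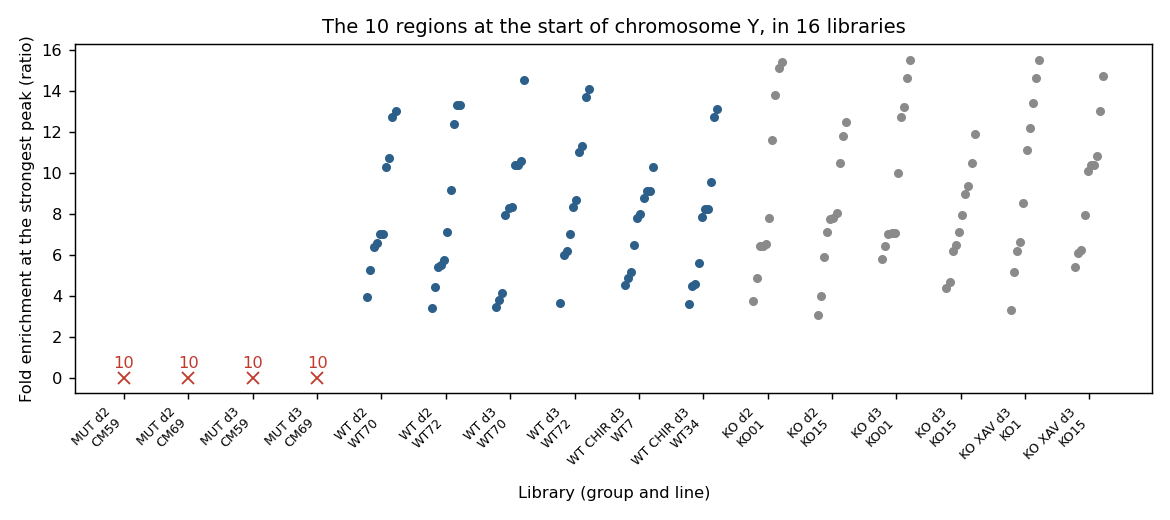
Fold enrichment at the strongest deposited peak (y axis, ratio) of the 10 consensus regions at the start of chromosome Y, as 1 point per region in each of the 16 libraries (x axis, MUT in red, WT in blue, KO in grey). A cross at 0 with the number 10 marks the MUT libraries, which have no deposited peak at any of the 10, while every other library has 10 peaks.

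Off chromosome Y, 2 lost regions had no peak in either MUT library. That at chr6:145517051-145517361, in an intron and 66439 bp from the start site of Lmntd1, had a fold enrichment of 9.69 in WT70 and 5.67 in WT72. On day 2 it had 3.81 and 4.88 in MUT and 10.8 and 10.2 in WT, and it was open in 4 of 16 libraries, the WT ones of both days. That at chr3:90076946-90077262, 2436 bp from a start site of the tropomyosin gene Tpm3, had no peak in MUT and 3.55 and 3.21 in WT. On day 2 the Tpm3 region had 2.98 and 2.51 in MUT and 3.05 and 3.22 in WT, so its absence was seen on day 3 only.

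The 7 gained regions without a peak in WT on day 3 were spread over 6 chromosomes and mostly far from start sites. The first by strength, chr17:72828341-72828686, lay 7939 bp from the start site of Ypel5 and had a fold enrichment of 8.15 and 6.71 in MUT. In WT72 the only peak had its summit next to the region, at 3. On day 2 the order was reversed, as the Ypel5 region had no peak in MUT and 3.73 and 2.72 in WT. The second, chr12:55664040-55664407 in an intron of Ralgapa1, a regulator of Ral GTPases, had 7.47 and 6.4 in MUT and no peak in WT on day 3. On day 2 the Ralgapa1 region had 9.43 and 7.25 in MUT and 6.37 and 7.48 in WT, and the genotypes overlapped there. The 4 others away from promoters were at chrX:56537197-56537557 near Gm648 (6.79 and 8.84 in MUT), chr1:171821377-171821715 near the immune receptor gene Cd84 (6.79 and 6.1), chr15:48571734-48572058 (7.81 and 6.1) and chr15:39616651-39616962 in the synaptic gene Rims2 (6.46 and 6.4). On day 2 both WT libraries had a peak near Gm648 (5.49 and 6.8), near Cd84 (4.61 and 5.1) and at chr15:48571734-48572058 (6.15 and 4.76). In the same order MUT had 5.23 and 6.71, 4.73 and 5.19, and 7.14 and 3.66. The Rims2 region of day 2 had no peak in WT, and 3.81 and no peak in MUT. The seventh lay at a promoter of the imprinted gene Gnas.

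Among the regions off chromosome Y without a peak in the other genotype, that in Lmntd1 was the strongest lost one and those near Ypel5 and in Ralgapa1 were the strongest gained ones. Their 151 bases around the summit are shown for that reason (plus strand, CpG in capitals).
Lmntd1, chr6:145517126-145517276: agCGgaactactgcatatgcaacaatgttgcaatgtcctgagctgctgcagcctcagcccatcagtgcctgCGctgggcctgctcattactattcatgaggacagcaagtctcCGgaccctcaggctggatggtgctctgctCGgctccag
Ypel5, chr17:72828426-72828576: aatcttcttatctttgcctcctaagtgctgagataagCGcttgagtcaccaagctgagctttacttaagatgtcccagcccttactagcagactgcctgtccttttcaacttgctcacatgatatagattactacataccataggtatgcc
Ralgapa1, chr12:55664153-55664303: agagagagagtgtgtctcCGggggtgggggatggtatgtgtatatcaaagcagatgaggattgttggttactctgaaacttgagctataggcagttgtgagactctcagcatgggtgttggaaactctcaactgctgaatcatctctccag
The lost window holds 4 CpG dinucleotides and each gained window 1.

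Gnas encodes the stimulatory G protein alpha subunit and is an imprinted locus with several promoters, some of them methylated on a single parental allele. It had 17 consensus regions, of which 2 were gained and 1 lost. Taking all regions within 3 kb of its start sites together, Gnas was open in all 4 day 3 libraries. The gained region at chr2:174284056-174284415 lay 84 bp from an annotated start site. It had a fold enrichment of 3.87 and 4.08 in MUT and no peak in WT on day 3. On day 2 it had 3.39 and 4.75 in MUT and 1.93 and 2.66 in WT. The next one, chr2:174285078-174285400, had 6.58 and 6.51 in MUT and 2.34 and 2.69 in WT, and it was open in 14 of the 16 libraries, all but the WT pair of day 3. The lost region, chr2:174327279-174327584 at another start site, had 1.95 and 1.99 in MUT and 3.69 and 3.5 in WT. On day 2 the second gained region had 6.46 and 7.36 in MUT and 5.33 and 6.67 in WT, which overlapped. The 2 gained windows are CpG-rich, as their summit sequences show (plus strand, CpG in capitals).
Gnas, chr2:174284139-174284289: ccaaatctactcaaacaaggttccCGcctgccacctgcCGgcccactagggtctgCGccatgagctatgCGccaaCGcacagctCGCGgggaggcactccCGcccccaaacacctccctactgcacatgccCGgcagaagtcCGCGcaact
Gnas, chr2:174285156-174285306: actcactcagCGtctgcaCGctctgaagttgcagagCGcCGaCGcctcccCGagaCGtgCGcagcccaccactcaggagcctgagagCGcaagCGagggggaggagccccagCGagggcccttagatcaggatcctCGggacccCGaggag
They hold 11 and 13 CpG dinucleotides. The whole imprinted list, with 16 of 20 genes holding a region, had a gained region only at Gnas and a lost one at Gnas and Inpp5f.

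Germline genes whose promoters are silenced by DNA methylation were examined as a list of 18 genes with 50 regions. Stk31 and Sycp3 had gained regions and Sycp1 a lost one. The Stk31 promoter, chr6:49395319-49395721, had a fold enrichment of 6.79 and 7.93 in MUT and 6.23 and 4.33 in WT. A promoter region of Sycp3, a protein of the synaptonemal complex, had 7.71 and 5.68 in MUT and 4.35 and 4.66 in WT (chr10:88459420-88459802). Both regions were open in 12 of 16 libraries, namely all but WT of day 3 and CHIR-treated WT. Over all regions within 3 kb of its start site, however, Sycp3 was open in all 4 day 3 libraries. On day 2 Stk31 had 13.9 and 12.3 in MUT and 11.4 and 11.9 in WT, and Sycp3 had 7.18 and 8.2 in MUT and 6.46 and 8 in WT. The Stk31 values of day 2 were above those of day 3 in each genotype. These promoter windows are also CpG-rich (summit in CM59, plus strand, CpG in capitals).
Stk31, chr6:49395492-49395642: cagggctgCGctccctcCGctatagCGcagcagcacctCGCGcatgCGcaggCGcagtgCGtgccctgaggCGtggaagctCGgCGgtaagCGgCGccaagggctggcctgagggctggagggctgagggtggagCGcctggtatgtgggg
Sycp3, chr10:88459507-88459657: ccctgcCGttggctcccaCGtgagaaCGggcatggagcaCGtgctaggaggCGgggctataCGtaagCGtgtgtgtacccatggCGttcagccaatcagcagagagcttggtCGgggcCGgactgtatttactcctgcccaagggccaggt
They hold 14 and 10 CpG dinucleotides.

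Over all genes, 1203 of the 17403 protein-coding genes with a consensus region had a gained region (6.91%) and 1241 a lost one (7.13%), and 154 had both. Among the 70851 regions assigned to a gene, 1.84% were gained and 1.9% lost. The 17 gene lists examined held 266 genes with 1811 regions, of which 35 were gained (1.93%) and 38 lost (2.1%), shares close to those of all assigned regions. In single lists the gained share was 0% to 6% and the lost share 0% to 4.11%, each resting on 5 regions or fewer.

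Primitive streak genes had 2 gained and 3 lost of 156 regions, in a list of 18 genes. Foxa2, a transcription factor of node and endoderm, had 2 lost regions, and it was the only definitive endoderm gene of 18 with a member, as that list had 0 gained regions. The one at chr2:147968644-147969084, 76600 bp from the start site, had a fold enrichment of 5.44 and 4.57 in MUT and 8.65 and 8.67 in WT. The one at 1666 bp from the start site had 2.88 and 2.82 in MUT and 3.51 and 3.36 in WT. Counting all regions within 3 kb of its start site, Foxa2 was open in all 4 day 3 libraries. On day 2 the distal Foxa2 region had 7.38 and 7.63 in MUT and 8.78 and 8.16 in WT.

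Mesoderm genes had 5 gained and 4 lost of 154 regions. Msx2, a homeobox gene of mesoderm and neural crest, had 3 of the gained ones, and that at chr13:53501797-53502176 had a fold enrichment of 6.95 and 7.72 in MUT and 4.77 and 4.77 in WT. The forkhead gene Foxc1 had a lost promoter region, with 2.82 and 3.06 in MUT and 3.29 and 3.68 in WT. Its promoter as a whole was open in all 4 libraries, with 5.31 and 4.38 in MUT and 4.73 and 4.07 in WT. Among posterior genes, with 2 gained and 1 lost of 73 regions, the Cdx1 promoter, of a homeobox gene that Wnt activates, had 5.2 and 4.77 in MUT and 3.75 and 3.88 in WT. Cyp26a1, which breaks down retinoic acid, was gained near its start site with 4.05 and 3.74 in MUT and 3.39 and 3.19 in WT. The lost posterior region lay at the Nkx1-2 promoter, with 3.66 and 3.45 in MUT and 4.76 and 4.02 in WT. Over all regions within 3 kb of their start sites, Nkx1-2 and Cyp26a1 were open in all 4 libraries. Cdx1 was open in both MUT libraries and in neither WT library.

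Neuroectoderm genes, the fate of this protocol, had 3 gained and 4 lost of 200 regions in 26 genes. Nes, the neural progenitor filament gene, had a gained region 541 bp from its start site (chr3:87970374-87970699), with a fold enrichment of 3.72 and 3.29 in MUT and 2.63 and 2.5 in WT. It was the only list region gained on both days, with 3.57 and 4.01 in MUT and 3.09 and 3.41 in WT on day 2. Counting all regions within 3 kb of its start site, Nes was open in all 4 day 3 libraries. Its fold enrichment there was 4.43 and 4.59 in MUT and 4.57 and 4.89 in WT. Sox2, a factor of pluripotent and neural cells, had 2 lost regions, and that at chr3:34639209-34639539 had 4.03 and 3.8 in MUT and 5.69 and 5.26 in WT. Pax6, an eye and forebrain regulator, had a lost region 696 bp from a start site, with 3.44 and 3.04 in MUT and 3.44 and 4.04 in WT. In CM59 and WT70 the Pax6 values were equal to 3 digits, so only the rank by −log10 p set them apart. In neural crest and surface ectoderm genes, 5 of 160 regions were gained and 5 lost, among them 2 lost regions of Pax7. Gata3 had a gained promoter region (3.71 and 3.53 in MUT, 3.51 and 2.97 in WT) and a lost region. Over all regions within 3 kb of their start sites, Pax6 and Gata3 were open in all 4 libraries.

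Naive pluripotency genes had 1 gained and 5 lost of 131 regions, the lost ones at Esrrb, Sox2 and Zfp42. Esrrb, an orphan nuclear receptor of the naive network, had 2. The Esrrb region at chr12:86518777-86519083 was lost on both days, with a fold enrichment of 4.81 and 4.55 in MUT and 6.81 and 6.38 in WT on day 3, and 4.91 and 5.08 in MUT and 6.04 and 7.61 in WT on day 2. The other Esrrb region, chr12:86320681-86321009, had 5.1 and 5.49 in MUT and 7.69 and 6.1 in WT. The MUT values were below the WT values in these comparisons, but the regions were chosen as lost, so the comparisons cannot test the direction. On day 2, when it was not lost, the other region had 5.47 and 7.09 in MUT and 8.75 and 9.18 in WT. The Esrrb promoter went the other way on day 3, with 9.75 and 9.22 in MUT and 8.77 and 8.22 in WT. Formative genes had 3 gained and 2 lost of 174 regions, with Dnmt3a, a de novo DNA methyltransferase, on both sides.

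The Wnt list had 4 gained and 4 lost of 239 regions. Axin2, a feedback inhibitor that Wnt induces, had 2 lost regions, with a fold enrichment of 3.71 and 4.63 in MUT and 8.06 and 6.34 in WT at chr11:108857230-108857555, and 4.56 and 4.66 in MUT and 7.08 and 6.16 in WT at chr11:108975627-108975950. On day 2 the first Axin2 region had 6.42 and 5.19 in MUT and 5.31 and 6.12 in WT, where the groups overlapped. Lgr5, a receptor of R-spondins, had a gained region 1012 bp from its start site, with 4.46 and 4.21 in MUT and 4.05 and 2.72 in WT. Its promoter as a whole was open in all 4 libraries, with 7.88 and 8.65 in MUT and 9.34 and 9.6 in WT. In the Nodal list, 2 of 111 regions were gained and 3 lost. Nodal itself, the TGF-β ligand of the streak, had a gained region 1891 bp from its start site (3.78 and 3.52 in MUT, 2.97 and 2.89 in WT). Over all regions within 3 kb of its start site, however, Nodal was open in all 4 libraries. Its fold enrichment there was 4.81 and 4.93 in MUT and 5.74 and 5.64 in WT. Smad7, an inhibitory SMAD, had 1 gained and 2 lost regions.

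TET and DNMT enzymes and their partners had 4 gained and 3 lost of 103 regions. Tet3, the paralogue of Tet1 with the same activity, had 2 gained regions. The intronic one at chr6:83427430-83427817 had a fold enrichment of 5.72 and 5.3 in MUT and 4.01 and 3.55 in WT, and that at 1240 bp from the start site had 3.64 and 3.73 in MUT and 3.29 and 2.85 in WT. On day 2 the intronic Tet3 region had 2.38 and no peak in MUT and 2.91 and no peak in WT. Counting all regions within 3 kb of its start site, Tet3 was open in all 4 day 3 libraries. Dnmt3a had 1 gained region, with 4.75 and 3.68 in MUT and 3.58 and 2.92 in WT, and 2 lost ones.

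Lists of other cell types and of control genes also had members. Extraembryonic endoderm genes had 0 gained and 2 lost of 62 regions, among them a region 1366 bp from the start site of the collagen gene Col4a1 that was lost on both days (5.11 and 3.48 in MUT, 8.72 and 5.39 in WT on day 3). Col4a1 was still open in all 4 day 3 libraries over all regions within 3 kb of its start site. Fibroblast genes had 1 gained and 3 lost of 73, among them the promoter of Pdgfrb, the PDGF receptor beta, whose values stand with the feeder markers above. Trophoblast genes had 3 gained and 3 lost of 93. Housekeeping genes had 3 gained regions of 66, at Actb and Ywhaz, and 0 lost. The housekeeping share, 4.55%, shows how far such a share can move in a list with no known tie to TET1.

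Outside the lists, no gene had more than 4 gained or 3 lost regions. Etl4, an actin-associated scaffold gene, had 4 gained of 39 regions, and that at chr2:20394130-20394479 had a fold enrichment of 7.81 and 7.32 in MUT and 5.19 and 4.33 in WT. Sfmbt2, an imprinted polycomb-group gene in mouse, St3gal3, a sialyltransferase gene, Scml4, another polycomb-related gene, and Irf2bp2, a transcriptional corepressor gene, had 3 gained regions each. The Sfmbt2 promoter region, chr2:10370175-10370581, had 3.78 and 4.39 in MUT and 3.75 and 3.13 in WT. Tnrc18 and Pdzd2 had 3 lost regions each, and the Tnrc18 region at chr5:142764336-142764647 had no peak in CM59, 2.71 in CM69 and 5.68 and 5.08 in WT. Eif2s3y on chromosome Y, Trim65, a ubiquitin ligase gene, and 5330417H12Rik had 2 lost regions each.

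**Figure D4:**
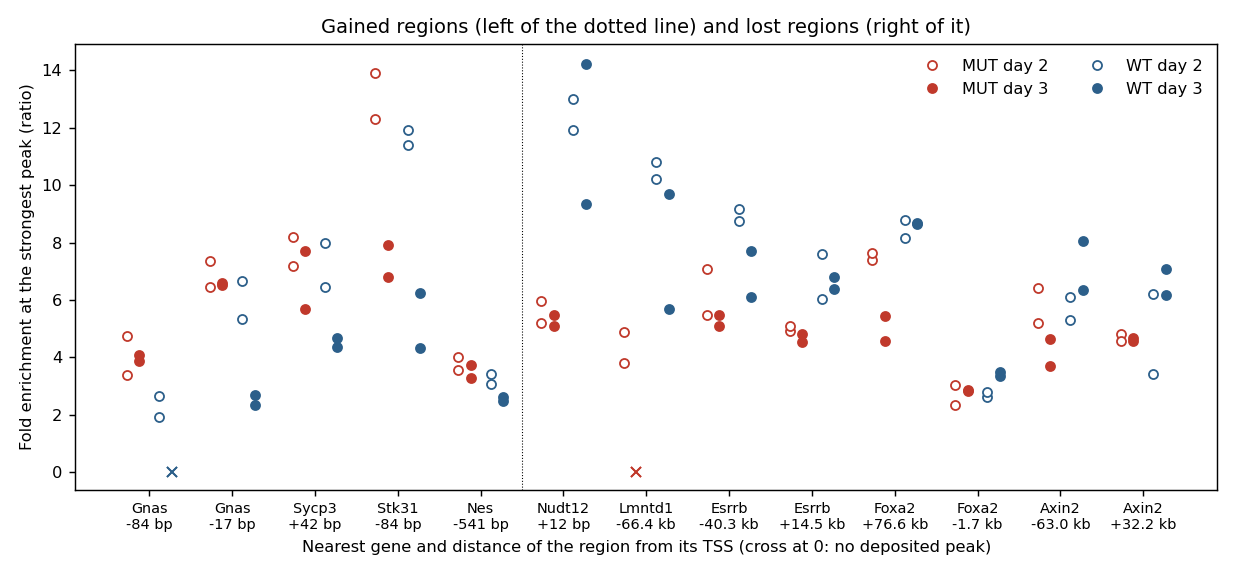
Fold enrichment at the strongest deposited peak (y axis, ratio) at named gained (left of the dotted line) and lost regions (right of it), by nearest gene and distance from its start site (x axis), in MUT (red) and WT (blue) libraries of day 2 (open) and day 3 (filled), 1 point per library and a cross at 0 for no peak. At the second Gnas region the MUT values of day 3 are 6.58 and 6.51 and the WT values 2.34 and 2.69, and at the Nudt12 promoter MUT lies below WT on both days.

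The libraries of day 2, which the rule did not use, showed where members persisted. Of the gained regions, 43.5% and 39.7% were open in the MUT libraries of day 2 and 37.3% and 35.2% in the WT libraries. The means were 41.6% ± 2.68 in MUT and 36.3% ± 1.43 in WT (SD, n = 2 each), a difference of 5.32 percentage points. It was 3.43 points without the MUT library of CM59 and 1.33 points with all intervals whose −log10 q reached 2. Of the lost regions, 45.9% and 43.3% were open in MUT and 53.6% and 51.3% in WT. The means were 44.6% ± 1.77 in MUT and 52.5% ± 1.64 in WT (SD, n = 2 each), a difference of -7.88 points. In each case the genotypes did not overlap, and no p is given, for the same reason as above.

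The same lines were used on both days, so a difference between lines carries over in the same way as a difference between genotypes. For the mixed pairs, the day 2 libraries of the lines where a region was open on day 3 exceeded those of the other lines by -2.32, 1.2, 2.85 and 6.16 points. The difference at gained regions, 5.32, lay within that range. That at lost regions, where WT exceeded MUT by the size given, lay outside it. The libraries also did not overlap in the mixed pairs CM59 with WT70 (means of 46.3% and 40.2%) and CM69 with WT72 (43.7% and 46%). Regions gained on both days numbered 59 and regions lost on both days 83, while the mixed pairs gave 24, 29, 38 and 56 regions on both days. Of the 83, 5 lay on chromosome Y. Within 3 kb of a start site lay 19 of the 59 and 23 of the 83.

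By the open call, a few regions set the MUT libraries of both days apart from all others. They were chosen after their values were seen. Open in all 4 MUT libraries and in none of the other 12 were 3 regions, at the promoter of Kcnip3, a calcium-binding repressor gene, near Akap12, a kinase anchor gene, and near Rem2, a small GTPase gene. At Kcnip3 the fold enrichment was 3.52 to 3.94 in the MUT libraries and 2.23 to 3.49 in the other 12. Near Akap12 it was 5.66 to 7.02 in MUT and 3.33 to 6.8 in the 9 others with a peak. Near Rem2 it was 3.98 to 5.76 in MUT and 2.75 to 4.9 in the 11 others with a peak. The values thus overlapped near Akap12 and Rem2. Open in the other 12 and in no MUT library were 7 regions, of which 5 lay on chromosome Y. The remaining ones were a region 54332 bp from the start site of Rnf7 and the promoter of Nudt12, which encodes a nudix hydrolase of NAD(H). Near Rnf7 the values overlapped, with 4.76 to 5.78 in MUT and 5.76 to 9.95 in the other 12.

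The Nudt12 promoter, chr17:59013195-59013525, had a fold enrichment of 5.1 and 5.49 in MUT and 14.2 and 9.33 in WT on day 3. On day 2 it had 5.95 and 5.19 in MUT and 13 and 11.9 in WT. Over all 16 libraries the 4 MUT values were 5.1 to 5.95 and the other 12 were 7.55 to 14.2, so the groups did not overlap. A peak was thus present in each MUT library. Its summit window in WT70 is shown because, off chromosome Y, it is the promoter that was open in the other 12 libraries and in no MUT library (plus strand, CpG in capitals).
Nudt12, chr17:59013293-59013443: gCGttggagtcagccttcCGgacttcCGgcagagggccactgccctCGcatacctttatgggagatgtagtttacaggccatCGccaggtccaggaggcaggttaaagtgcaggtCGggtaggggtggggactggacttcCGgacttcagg
It holds 7 CpG dinucleotides. The parent WT7, profiled only with CHIR, had a fold enrichment of 9.54 at this promoter. Whether the promoter differs by the edit or by the clones cannot be told apart, since both MUT lines share the edit and the clonal step.

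The other groups of the series were described at the same regions. Gained regions were open to 44.3% and 43.4% in the KO libraries of day 3, to 43.1% and 43.4% in KO with the Wnt inhibitor XAV and to 30.2% and 31.9% in CHIR-treated WT. Lost regions were open to 30.1% and 29.5% in KO on day 3, to 44.6% and 48.8% in KO with XAV and to 31.3% and 30% in CHIR-treated WT. At lost regions KO on day 3 thus lay below KO on day 2, which had 44.9% and 40.1%. These groups differ from MUT and WT in line as well, and no test was made.

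**Figure D5:**
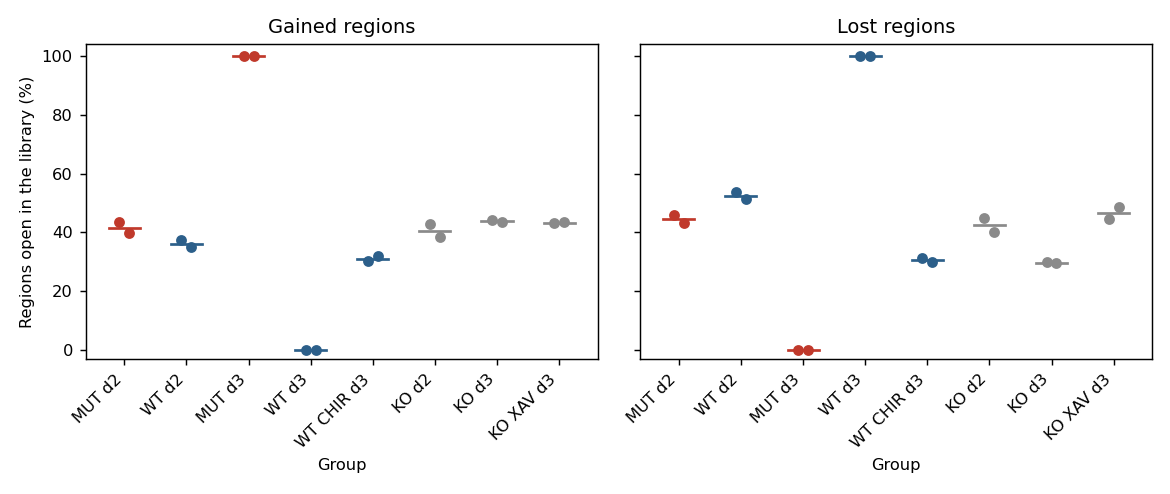
Share of gained (left) and lost (right) regions that were open (y axis, %) by group (x axis), with a point per library and a bar at the mean of 2. The day 3 MUT and WT groups are at 100% or 0% by the rule, and on day 2 MUT lies above WT at gained regions (43.5% and 39.7% against 37.3% and 35.2%) and below WT at lost regions.

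Members were more distal and poorer in CpG than regions open in all 4 libraries. Within 3 kb of an annotated start site lay 28.3% of gained and 29.6% of lost regions, against 26.2% to 31.8% of the mixed sets and 56.2% of the 39147 regions open in all 4. In a window of 300 bp, gained regions had a mean of 5.15 CpG dinucleotides and lost regions 6.33, the mixed sets 5 to 6.1 and the regions open in all 4 a mean of 13.7. No CpG at all was found in 9.92% of gained and 3.09% of lost regions, with 6.26% to 7.7% in the mixed sets and 5.1% in all consensus regions. Gained regions were thus CpG-free more often, and lost ones less often, than any mixed set, as a description without a test.

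Of 16 transcription factor motifs searched on both strands of these windows, the AP-1 motif had the largest difference between gained and lost regions in percentage points. AP-1 is the family of Fos and Jun factors, common at enhancers of many adherent cells. The letters TGANTCA were found in 24.2% of gained and 11.3% of lost regions, and in 11.8% of all consensus regions. The mixed sets ran between 8.53% and 24.9%, so both values lay inside their range. The 3 sets in which WT70 was on the closed side, which are the gained regions and the mixed pairs CM69 with WT72 and CM59 with WT72, had 24.2%, 22% and 24.9%, and the 3 sets with WT70 on the open side had 11.3%, 12.9% and 8.53%. Among regions open in 1 to 3 of the 4 libraries, the share with the motif was 19.5% and 17.1% in the MUT libraries CM59 and CM69, 11% in WT70 and 17.7% in WT72. In these 6 sets the AP-1 share went with the side of WT70, and among the 4 libraries WT70 had the lowest share.

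Other motifs differed by fewer percentage points. The TCF/LEF core CTTTGA, through which Wnt signals are read, was in 21.1% of gained and 18.3% of lost regions, 18.9% to 19.9% of the mixed sets and 19% of all regions. The forkhead motif TGTTTAC was in 5.74% of gained and 3.47% of lost regions, with 3.37% to 5.21% in the mixed sets. The SOX motif ACAATGG was in 3.66% of gained and 5.02% of lost regions, with 3.89% to 4.88% in the mixed sets. The ETS motif CCGGAAGT and the NRF1 motif GCATGCGC, both with a CpG in their core, were in 0.522% and 0.522% of gained regions, 1.22% and 1.09% of lost regions, and 1.81% and 1.38% of all regions. Across the 16 motifs the gained share lay outside the range of the mixed sets for 4 and the lost share for 7, and a match says only that these letters occur in the window.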

How the data were processed

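ATAC-seq peaks of 16 libraries were used, as the authors deposited them per library from the ENCODE ATAC-seq pipeline on mm10. The sources used here name no version of the aligner or the caller. The authors' deposited values are a fold enrichment, a ratio to the local background, with its −log10 p and −log10 q. The lists hold no counts, so read depth is unknown and no interval that needs it is given. The 4 day 3 libraries held 170543 to 199224 peaks, and the lists of all 16 reached down to a −log10 p of 2. The submitters' processing notes name DiffBind 3.0.15, HOMER 2 and deepTools 3.4.3. The 2 deposited lists of regions that differ between KO and WT hold the authors' own comparison and were not used.

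Peaks with the same start and end were merged, the 50000 with the highest −log10 p kept, and windows of 150 bp either side of their summits merged over all libraries. The consensus kept merged windows found in 2 or more libraries. The fold enrichment of a region was that of the strongest peak with a summit within 150 bp of it. Log2 values were quantile normalized and fitted with limma 3.58.1 in R 4.3.3 (trend, robust, no pseudocount), with Benjamini-Hochberg adjustment, a step tested on simulated data. Its p-values rest on the spread between lines of a genotype. Other numbers of peaks, rankings, overlaps, normalizations and left-out libraries were tried.

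Annotation (GENCODE M21) and sequence were those of GRCm38.p6, with the same coordinates as mm10. Each region was assigned to its nearest protein-coding start site up to 100 kb away. Guide and donor came from the study's oligonucleotide table. Motifs were sought in 300 bp. Besides those in the text these were AGGTGTGA for T-box factors, AGATAAG for GATA factors, ATGCAAAT for OCT, ACATTCC for TEAD, CCCCGCCC for KLF/SP, CCAATCA for NFY, TGACGTCA for CRE, TAATTA for homeobox factors, CAGCTG for the E-box, and the CTCF motif.

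Named were list genes with 2 or more gained or lost regions or with one within 3 kb of their start site, the 5 other genes with the most gained and the 5 with the most lost regions (ties by share of their regions), regions without a peak in the other genotype, and Tet1. The members and lists were chosen with earlier results of these data known.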

Additional observations from a re-analysis of the deposited data

Results flagged for a closer look

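Some regions changed sides between the days, and this difference was not tested. Of the regions gained in MUT on day 3, 23 were lost on day 2 by the same rule, and of the regions lost on day 3, 34 were gained on day 2. These counts stand beside 59 regions gained and 83 lost on both days.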

How the results depend on the processing

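With 30000 intervals per library, 887 regions were gained and 888 lost, with every interval at a −log10 q of at least 2, 452 and 434, and with every deposited interval, 454 and 239. Both counts exceeded all mixed pairs in 3 of 8 alternatives, one of them, without chromosome Y, chosen after seeing the data. They did not with 30000 (mixed 658 to 927) or 70000 intervals (1074 gained, 1194 lost, mixed 755 to 1244), at that −log10 q (202 to 721), with every interval (169 to 514), or, for gained regions, with ranking by fold enrichment (1348, mixed 1094 to 1442). Leaving out each of the 4 libraries in turn gave counts of 3549 to 3826 for gained and 3155 to 4045 for lost regions, because fewer libraries then have to meet the rule. The day 2 difference became 1.33 points at gained regions and -10.5 at lost ones at a −log10 q of at least 2, and -9.8 at lost ones with 30000 intervals. Without each day 2 library it was 3.43 to 7.21 and -9.13 to -6.62. limma called 0 regions in all 9 settings, at adjusted p of no less than 0.0718. No paired analysis was possible because the replicate numbers were given in accession order and the lines differ between the genotypes.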
